A study of Mus musculus with 6 samples.

Results

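Met, PDGF, IGF and Axl receptor systems are described here through 10 genes in 6 cultures of Msc80, a mouse Schwann cell line: 5 receptor tyrosine kinase genes (Met, Pdgfra, Pdgfrb, Igf1r, Axl) and 5 ligand genes (Hgf, Pdgfa, Pdgfb, Igf2, Gas6). The genes were given by name and found by matching Ensembl gene IDs of the count tables to mouse symbols. All 10 were found, each under 1 ID, among 54109 listed genes. The 3 control cultures carried wild-type Sox10. In the other 3, called Sox10ko, Sox10 had been inactivated by CRISPR/Cas9 editing. Sox10 is a transcription factor of neural crest and glia. Cultures of both groups were kept in the same medium with fetal calf serum, which itself brings growth factors to the cells. Per the labels, replicates within a group are biological, and the Sox10ko cells are described as a clone. Whether 1 clone or several were used is not said, so Sox10 loss and differences between clones cannot be told apart.

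Each of these systems pairs a secreted ligand with a receptor that spans the membrane and phosphorylates tyrosines once the ligand is bound. Most of these receptors are brought together as pairs by the ligand, while the IGF1 receptor is already a linked dimer. The signal then runs through adaptor proteins to the PI3 kinase and ERK pathways, which promote survival, growth and movement. HGF, the ligand of Met, is made as an inactive precursor and cut outside the cell. PDGF chains form dimers: the A chain binds PDGF receptor alpha, the B chain binds both receptors, and the C chain must be cut by a protease before it acts. IGF1 and IGF2 bind the IGF1 receptor, and a family of IGF binding proteins controls how much free ligand reaches it. Gas6 is a ligand of the receptors Tyro3, Axl and Mertk, together known as the TAM receptors. Protein S is a ligand of Tyro3 and Mertk. In Schwann cells, IGF and PDGF-BB are known as survival and growth factors of cells that live without axons.

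Levels are read counts scaled to TMM-adjusted library size (CPM). They are given per culture or as mean ± SD with n = 3 per group. Differences are log2 fold changes of Sox10ko over control ± SE from edgeR's quasi-likelihood test, with p-values adjusted over all 15427 tested genes by the Benjamini-Hochberg method and a threshold of 0.05. Libraries held 32328618 to 41834431 counted reads, so that 1 read was worth 0.0239 to 0.0309 CPM. Sox10 itself was at 606, 627 and 617 CPM in the controls and at 82.3, 67.5 and 116 CPM in Sox10ko (log2 fold change -2.80 ± 0.20, edgeR adjusted p = 0.000186). Of 12 Schwann cell markers, 10 were lower and 0 higher in Sox10ko, and their summed level went from 4850 to 5430 CPM in control to 258 to 350 CPM in Sox10ko. This list includes Sox10 itself. Much of its sum was Ngfr, at 2965 ± 272 CPM in control and 16.4 ± 13.4 CPM in Sox10ko. In these bulk samples, fewer cells of a type and less RNA per cell cannot be told apart.

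The Met receptor and the PDGF A chain fell in Sox10ko, while HGF, PDGF receptor beta and Gas6 rose. Of the 9 members with enough reads for a test, 3 were higher and 2 lower, Gas6 with a direction that its entry into the test fixed, as described with that gene. Across all tested genes 32.0% were called, 17.3% higher and 14.7% lower. The groups did not overlap in 5 of the 9 tested members, against 49.3% of all tested genes. Axl, Igf1r, Pdgfb and Pdgfra did not pass the test. Igf2 had 6 reads in all 6 libraries together and was not tested. The count of called members stayed at 5 under 11 of the 14 other ways of processing the data; it was 4 where genes averaging under 5 CPM were removed, Gas6 among them, and 6 where Pdgfb passed as well.

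**Figure D1:**
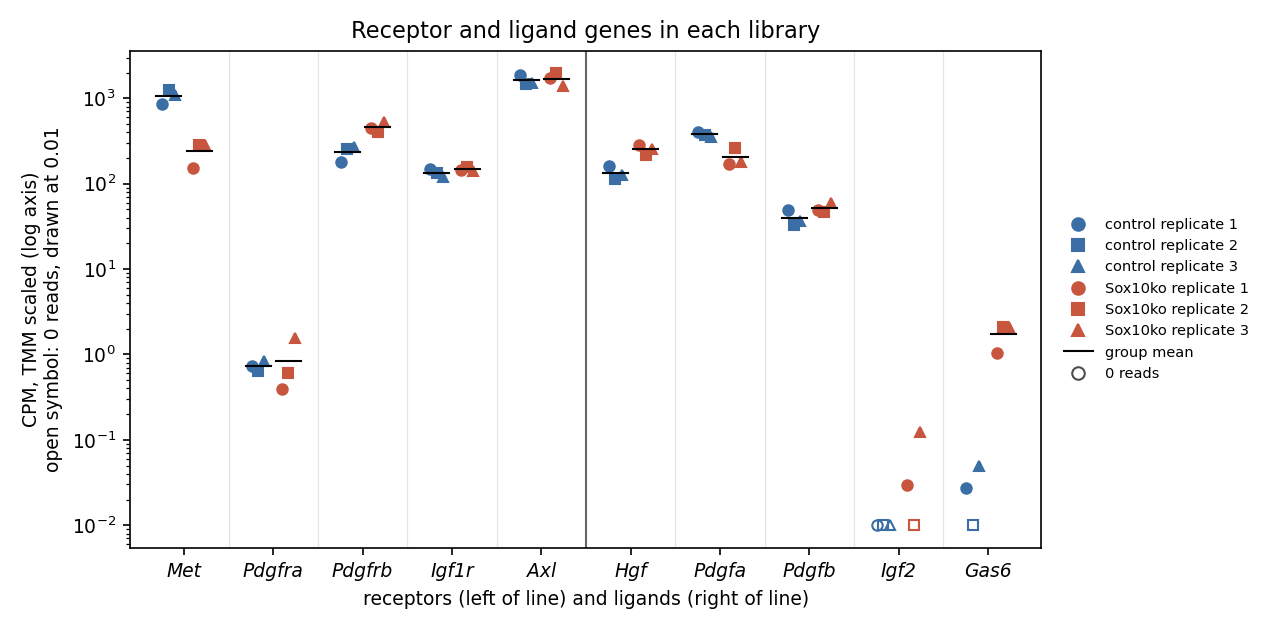
CPM of the 10 genes in each library on a log axis, receptors left and ligands right; bars are group means and open symbols are libraries with 0 reads. Met and Pdgfa are lower and Hgf, Pdgfrb and Gas6 higher in every Sox10ko library than in every control library, while Axl and Igf1r overlap.

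Met encodes the receptor for hepatocyte growth factor (ENSMUSG00000009376, chromosome 6, 17463800 to 17573980 on the plus strand of GRCm38, 7 annotated transcripts). Control replicates 1, 2 and 3 held 859, 1236 and 1094 CPM of it, and the Sox10ko replicates 153, 285 and 286 CPM in the same order. The Sox10ko cultures kept 14.4%, 26.8% and 26.9% of the control mean, and the highest of them lay far below the lowest control. The fall was 4.41-fold (log2 fold change -2.14 ± 0.27, edgeR adjusted p = 0.00130).

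Hgf encodes the ligand of Met (ENSMUSG00000028864, chromosome 5, 16553495 to 16620152, plus strand, 6 transcripts) and moved the opposite way. It was read at 161, 112 and 125 CPM in the controls and at 287, 216 and 257 CPM in Sox10ko. The groups did not overlap, and the rise was 1.91-fold (log2 fold change 0.93 ± 0.17, edgeR adjusted p = 0.00587). In either group, replicate 1 had the least Met and the most Hgf. A transcript annotated on the same strand, Gm43489, shares 484 exonic bases with Hgf, and reads there may be assigned to either. It was low, at 3.11 ± 1.29 and 4.25 ± 0.515 CPM, and was not called (edgeR adjusted p = 0.331).

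Both genes can be set against each other per kb of exon. For every 100 units of Met CPM per kb there were 20.1, 9.67 and 12.2 units of Hgf in the controls and 200, 81.0 and 96.1 units in Sox10ko. The ligand transcript was thus well below the receptor transcript in each control culture and near or above it in each Sox10ko culture. These ratios combine a pair of differences already tested and have no test of their own.

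Of 11 other genes of the Met system, 4 were tested, 1 was higher and 2 were lower, or 75.0% called against 32.0% of all tested genes. Cd44, a cell surface receptor whose splice forms act as Met co-receptors, was 2.34-fold lower, at 178 ± 9.60 CPM against 415 ± 5.95 CPM (log2 fold change -1.22 ± 0.09, edgeR adjusted p = 0.000185). Plxnb1, a semaphorin receptor that can associate with Met, fell from 238 ± 19.4 to 121 ± 2.53 CPM (-0.98 ± 0.10, edgeR adjusted p = 0.000491). Mst1, the ligand of Mst1r, a receptor related to Met, was called higher at 1.77 ± 0.999 CPM against 0.291 ± 0.170 CPM (edgeR adjusted p = 0.0169). Leaving out control replicate 1 or 3 ended that call (edgeR adjusted p = 0.0680 and 0.0784), and Mst1 passed the low-count filter only through Sox10ko, so its direction was set by the filter. Mst1r had 30 reads over all libraries. The known HGF activating proteases Hgfac, Hpn and St14 and the inhibitors Spint1 and Spint2 were all below 0.5 CPM on average in both groups and were not tested.

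The DNA just upstream of 4 called genes is shown next, Met and Pdgfa for the fall and Hgf and Gas6 for the rise, since their base composition differs. No window was held for Pdgfrb, the other called member. The direction of Gas6 was set by its entry into the test, so these windows do not compare falling with rising genes. The sequences are RefSeq's for GRCm38.p6, written 5′ to 3′ on the gene's strand, and are cut where a GENCODE exon of the gene begins. A longer Pdgfa transcript starts further upstream, and the antisense gene 6330403L08Rik overlaps the stretch shown for Pdgfa.
Met, chr6:17463707-17463799, plus strand: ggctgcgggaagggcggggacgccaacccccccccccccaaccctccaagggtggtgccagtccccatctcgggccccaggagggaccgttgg
Pdgfa, chr5:138995038-138995194, minus strand: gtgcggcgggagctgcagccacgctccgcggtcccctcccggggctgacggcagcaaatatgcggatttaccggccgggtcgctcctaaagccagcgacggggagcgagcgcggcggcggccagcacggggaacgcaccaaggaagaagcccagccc
Hgf, chr5:16553245-16553494, plus strand: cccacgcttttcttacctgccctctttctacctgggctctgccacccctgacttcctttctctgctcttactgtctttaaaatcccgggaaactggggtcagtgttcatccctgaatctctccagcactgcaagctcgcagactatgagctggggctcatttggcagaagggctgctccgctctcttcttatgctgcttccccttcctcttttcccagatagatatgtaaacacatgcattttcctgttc
Gas6, chr8:13494536-13494785, minus strand: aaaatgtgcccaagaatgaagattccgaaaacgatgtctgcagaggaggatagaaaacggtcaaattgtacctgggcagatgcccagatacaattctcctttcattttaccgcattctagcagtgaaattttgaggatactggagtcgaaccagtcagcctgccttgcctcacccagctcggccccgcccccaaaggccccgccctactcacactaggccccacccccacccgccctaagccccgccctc
In the full 250 bases before the RefSeq start, G and C made up 74.0% for Met and 72.4% for Pdgfa, with 24 and 28 CG dinucleotides. The windows of Hgf and Gas6 held 50.8% and 54.8% G and C, with 4 and 10 CG dinucleotides. The second listed start of Hgf and of Pdgfa gave 51.2% and 66.4%. The uncalled genes Igf1r and Axl had 77.6% and 60.0%. These are values of single windows and a description only.

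The windows of 250 bases were searched on both strands for ACAAAG and ACAATG, core words of SOX factor sites, and for TGANTCA, the word bound by AP-1. RefSeq windows were held for 8 of the 10 members, with more than 1 start for Hgf, Pdgfa and Igf2. Neither SOX word was in a window of Met, Hgf, Pdgfra, Igf1r, Axl or Gas6. One window each of Pdgfa and Igf2 held ACAATG, as do 10.7% of 32851 such windows in the table, and ACAAAG, held by 16.5%, was in none of the members' windows. Met had the only AP-1 word among them, held by 6.75% of all windows. The matches of the called genes are given with their flanks, the word in capitals.
Met, chr6:17463893-17463919, plus strand: gttgcccggcTGAGTCAcgggccgggc
Pdgfa, chr5:138994399-138994424, minus strand: aacgcagcggACAATGcagtaacggg
Both words lie in the first exon of an annotated transcript that starts further upstream than the RefSeq start of the window. These words do not overlap each other, and a match is not a measured binding site.

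Nearly all PDGF receptor transcripts in this line were of the beta form. Pdgfrb (ENSMUSG00000024620, chromosome 18, 61045150 to 61085061, plus strand, 2 transcripts) was read at 177, 252 and 267 CPM in the controls and at 454, 406 and 525 CPM in Sox10ko. Every Sox10ko culture was above every control, by 1.99-fold on average (log2 fold change 0.99 ± 0.18, edgeR adjusted p = 0.00575). Control replicate 1 was the lowest of the controls. Without it the rise was 1.75-fold.

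Pdgfra (ENSMUSG00000029231, chromosome 5, 75152292 to 75198215, plus strand, 9 transcripts) is the receptor that binds every PDGF chain but D. It had only 187 reads over all libraries, at 0.732, 0.640 and 0.830 CPM in the controls and 0.390, 0.610 and 1.55 CPM in Sox10ko. Sox10ko replicate 3 was the highest and replicate 1 the lowest of all 6, so the groups overlapped (log2 fold change 0.21 ± 0.50, edgeR adjusted p = 0.781). Without Sox10ko replicate 3 the estimate changed sign, to -0.55 (edgeR adjusted p = 0.287). Per kb of exon, Pdgfra made up 0.178% ± 0.0438 of PDGF receptor transcripts in control and 0.0965% ± 0.0582 in Sox10ko (exact permutation p = 0.20, two-sided; the smallest possible with 3 against 3 is 0.10).

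Pdgfrb is also a marker of pericytes and smooth muscle. Of 11 other markers of those cells, 9 were tested, and 6 were called higher and 1 lower in Sox10ko. Of the 6, Acta2, Cnn1, Myh11, Rgs5 and Notch3 entered the test through Sox10ko alone, which fixed their direction, and Des passed in either group. The summed level of all 11 markers, not of the 6 alone, was 744 to 849 CPM in control and 619 to 1294 CPM in Sox10ko. Only 2 of the 11 averaged 1 CPM or more in control, and 6 did in Sox10ko. The pericyte genes Kcnj8 and Abcc9 had 1 and 14 reads over all libraries, all in Sox10ko, while Acta2, smooth muscle actin, was at 0.144 ± 0.0882 CPM in control and 357 ± 270 CPM in Sox10ko. Of 10 fibroblast markers, 4 were tested, and 2 were higher and 0 lower, with a summed level of 292 to 338 CPM in control and 676 to 1915 CPM in Sox10ko, while the defining genes Dcn and Lum had 21 and 17 reads in Sox10ko. The part of these marker groups in the rise of Pdgfrb and Hgf was not tested.

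On the ligand side, Pdgfa (ENSMUSG00000025856, chromosome 5, 138976014 to 138997370, minus strand, 7 transcripts), the A chain, was the most abundant PDGF gene in both groups. Its values were 408, 374 and 349 CPM in the controls and 172, 261 and 180 CPM in Sox10ko. The groups did not overlap, and the fall was 1.85-fold (log2 fold change -0.88 ± 0.17, edgeR adjusted p = 0.00834). Sox10ko replicate 2 had kept the most. An antisense gene, 6330403L08Rik, shares 813 exonic bases with Pdgfa. Without a stated strand setting, reads of the pair cannot be told apart there. It was read at 45.7 ± 8.26 CPM in control and 38.7 ± 7.76 CPM in Sox10ko and was not called (edgeR adjusted p = 0.362).

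Pdgfb (ENSMUSG00000000489, chromosome 15, 79995874 to 80014977, minus strand, 4 transcripts), the B chain and the ligand that fits PDGF receptor beta, was read at 48.9, 33.0 and 36.9 CPM in the controls and 49.6, 47.1 and 59.9 CPM in Sox10ko. Control replicate 1 lay within the Sox10ko range and the other controls below it. The difference did not pass (log2 fold change 0.40 ± 0.17, 95% interval 0.0007 to 0.80, edgeR adjusted p = 0.115). It passed without control replicate 1 (0.56, edgeR adjusted p = 0.0433) and with each library's chromosome medians removed (0.57, edgeR adjusted p = 0.0378). Pdgfb lies on chromosome 15, as Sox10 does, where the median of tested genes was -0.08 against 0.02 over all tested genes.

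Of 10 other genes of the PDGF system, 6 were tested, 2 were higher and 2 lower, or 66.7% called against 32.0% of all tested genes. The largest rise in the ligand family was that of Pdgfc, the C chain, from 8.32, 6.40 and 5.81 CPM in the controls to 82.6, 68.9 and 72.6 CPM in Sox10ko (log2 fold change 3.45 ± 0.17, edgeR adjusted p = 5.22e-05). Plat, tissue plasminogen activator, the protease known to cut the C chain into its active form, dropped from 113 ± 11.9 CPM to 17.5 ± 7.86 CPM (-2.69 ± 0.33, edgeR adjusted p = 0.00128). Csf1, a ligand of a receptor in the same family, rose from 51.2 ± 10.4 to 460 ± 191 CPM (3.17 ± 0.32, edgeR adjusted p = 0.000571). Furin, the convertase that processes the A and B chains, was called lower (1.32-fold, edgeR adjusted p = 0.0278), a call lost under 6 of its 14 alternatives. Pdgfd and the related receptor Kit had 0 reads in every library, which allows up to 0.0129 CPM over the 6 libraries together.

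The ligand mix can be read as shares of the family. Per kb of exon, Pdgfa made up 91.8% ± 1.08 of the ligand transcripts in control and 70.1% ± 6.13 in Sox10ko. Pdgfb held 7.19% and 13.8%, and Pdgfc 1.02% and 16.2%. The Pdgfa share was lower in each of the 3 Sox10ko cultures than in any control (exact permutation p = 0.10, two-sided, the smallest this design allows; 0.167 after adjustment over the 5 shares compared). Relative to 100 units of Pdgfrb per kb, Pdgfa went from 404, 261 and 230 units in the controls to 66.6, 113 and 60.3 units in Sox10ko. The A chain binds receptor alpha, so this ratio compares transcript levels only. Pdgfb, whose chain fits receptor beta, went from 36.3, 17.2 and 18.2 units in the controls to 14.4, 15.3 and 15.0 units in Sox10ko.

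**Figure D2:**
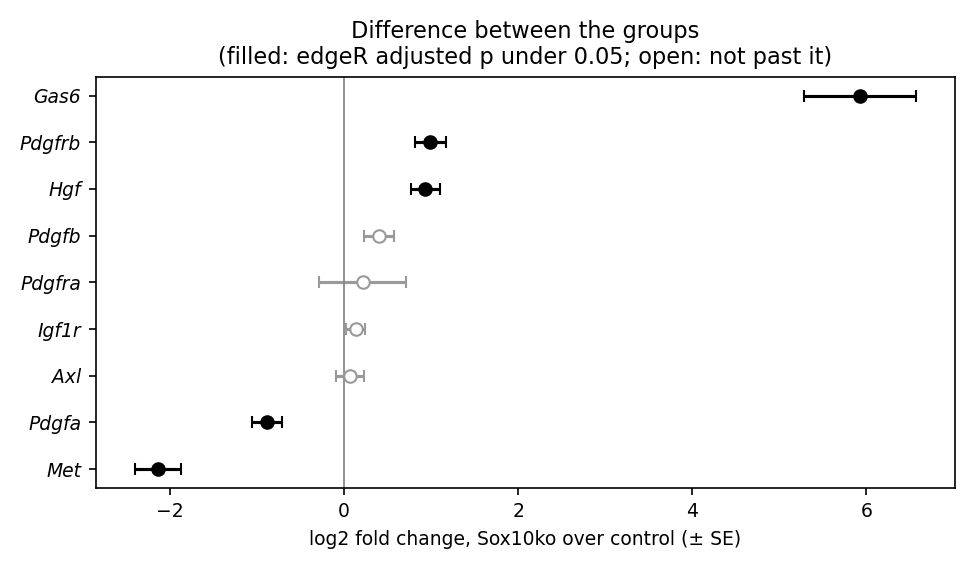
Log2 fold change of Sox10ko over control for the 9 tested genes, with SE bars; filled points passed the adjusted threshold of 0.05. Met and Pdgfa lie below 0, Gas6, Pdgfrb and Hgf above it, and the fitted value of Gas6 rests on 3 control reads.

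Igf1r, the IGF1 receptor gene (ENSMUSG00000005533, chromosome 7, 67952827 to 68233668, plus strand, 6 transcripts), was the steadiest of the tested members between cultures. It stood at 150, 132 and 121 CPM in the controls and 146, 156 and 140 CPM in Sox10ko. The groups overlapped, and the difference did not pass (log2 fold change 0.13 ± 0.11, 95% interval -0.12 to 0.39, edgeR adjusted p = 0.384). The related insulin receptor gene Insr was at 51.2 ± 10.8 and 48.5 ± 16.5 CPM and was not called either (edgeR adjusted p = 0.844). Per kb, Igf1r made up 68.3% ± 4.71 of the pair in control and 71.7% ± 7.21 in Sox10ko (exact permutation p = 0.40, two-sided).

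Igf2, a fetal growth factor expressed from the paternal allele (ENSMUSG00000048583, chromosome 7, 142650766 to 142666816, minus strand, 9 transcripts), was barely detected. It had 0 reads in each control library and 1, 0 and 5 reads in Sox10ko replicates 1, 2 and 3. A count of 0 allows up to 0.0257 CPM over the control group. H19, its neighbour in the imprinted cluster, was too low for a test, with 18 control and 50 Sox10ko reads. The ligand present in this line was Igf1, at 360, 308 and 332 CPM in the controls. In Sox10ko it was at 17.8, 52.0 and 26.6 CPM, far below every control (10.4-fold lower, log2 fold change -3.37 ± 0.38, edgeR adjusted p = 0.000867). Per kb, Igf1 went from 406, 396 and 466 units for every 100 of Igf1r to 20.6, 56.5 and 32.1 units. Ins1 and Ins2 had 0 reads.

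The IGF binding proteins did not move as a block. Igfbp3, the main carrier of IGF in serum, fell from 440 ± 38.8 to 27.3 ± 9.89 CPM (16.1-fold, log2 fold change -4.01 ± 0.28, edgeR adjusted p = 0.000169). Igfbp4, an inhibitory binding protein, was 313-fold higher, at 132 ± 17.8 CPM against 0.418 ± 0.0411 CPM (log2 fold change 8.29 ± 0.18, edgeR adjusted p = 4.37e-06), and its Sox10ko values of 130, 115 and 151 CPM were close to each other. Igfbp5, named here after its values were seen, rose from 38.1 ± 4.04 CPM to 115, 909 and 477 CPM in Sox10ko replicates 1, 2 and 3 (13.1-fold, edgeR adjusted p = 0.00605), or 7.70-fold without replicate 2. Igfbp6 and Igfbp7 were not called, and Igfbp1 and Igfbp2 had 1 and 23 reads in all.

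In the whole list of 21 other IGF genes, 14 were tested, 4 were higher and 2 lower, or 42.9% called against 32.0% of all tested genes. Next to the binding proteins, Igf2bp1, an RNA-binding protein that takes its name from Igf2 mRNA, was higher, at 43.0 ± 24.2 CPM against 0.308 ± 0.0889 CPM (edgeR adjusted p = 0.000257). It passed the low-count filter only through Sox10ko, so its direction was set by that. Stc2, an inhibitor of the proteases that cut IGF binding proteins, rose 1.96-fold (edgeR adjusted p = 0.00355). Pappa, such a protease, was at 27.9 ± 7.56 and 27.7 ± 9.53 CPM (edgeR adjusted p = 0.984). Igf2r, the scavenger receptor that removes IGF2, was at 470 ± 96.0 CPM in control and 268 ± 86.9 CPM in Sox10ko (edgeR adjusted p = 0.0532). Its groups did not overlap, and it passed under 5 of its 14 alternatives, DESeq2 among them (adjusted p = 0.00889).

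**Figure D3:**
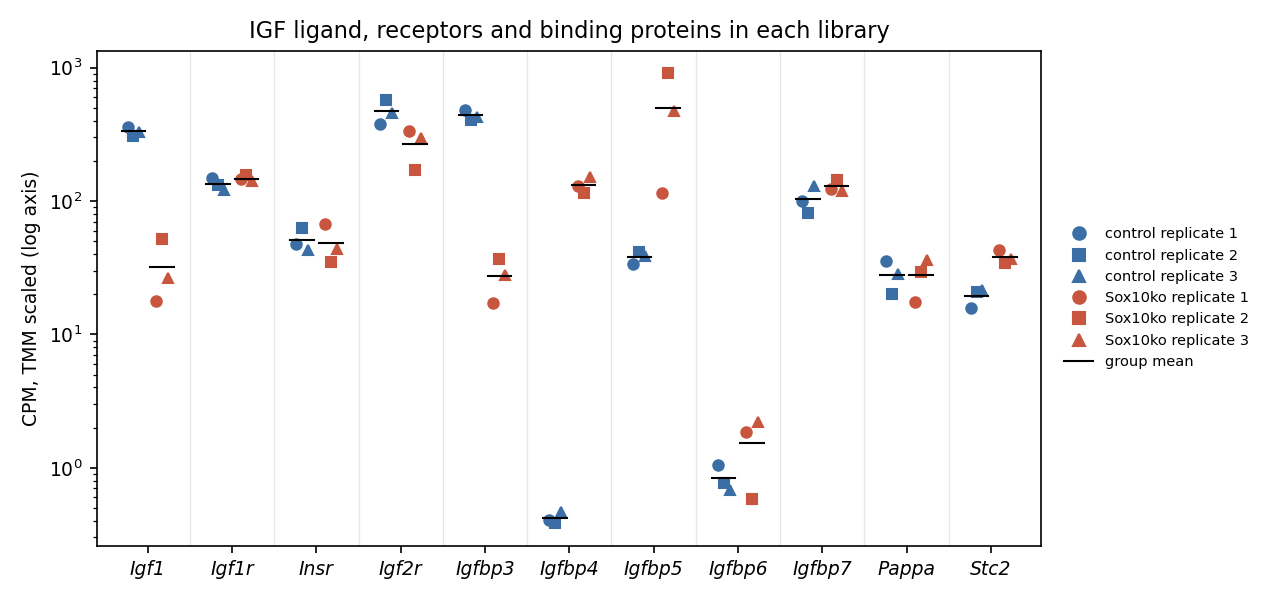
CPM of Igf1, its receptors and binding proteins in each library on a log axis, with group means as bars. Igf1 and Igfbp3 are lower and Igfbp4 and Igfbp5 higher in every Sox10ko library, while Igf1r stays between 121 and 156 CPM in all 6.

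Axl (ENSMUSG00000002602, chromosome 7, 25757273 to 25788705, minus strand, 8 transcripts) was the most abundant of the 10 genes in both groups. It was read at 1873, 1479 and 1499 CPM in the controls and at 1738, 1957 and 1401 CPM in Sox10ko. The groups overlapped fully: the highest and the lowest of all 6 values were both in Sox10ko. The difference did not pass, and its interval excludes a 2-fold change (log2 fold change 0.07 ± 0.16, 95% interval -0.30 to 0.44, edgeR adjusted p = 0.770). Its sign turned without Sox10ko replicate 2 or control replicates 2 or 3, with values of -0.052, -0.006 and -0.002. Per kb of exon, Axl reached 321 ± 44.1 CPM in control and 338 ± 55.6 CPM in Sox10ko.

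Both other TAM receptors were lower in Sox10ko. Mertk, best known for the uptake of dying cells and myelin debris, went from 26.5, 56.6 and 41.7 CPM in the controls to 6.95, 6.03 and 7.82 CPM in Sox10ko (5.99-fold, log2 fold change -2.58 ± 0.28, edgeR adjusted p = 0.000755). Tyro3 fell 1.57-fold, from 29.7 ± 2.64 to 18.9 ± 3.61 CPM (edgeR adjusted p = 0.0211), a call lost without any 1 of the control replicates (edgeR adjusted p = 0.0503 to 0.0692). Axl made up 95.6% ± 1.55 of TAM receptor transcripts per kb in control and 98.6% ± 0.184 in Sox10ko (exact permutation p = 0.10, two-sided, the smallest possible; 0.167 adjusted over the 5 shares).

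Gas6, the ligand of Axl (ENSMUSG00000031451, chromosome 8, 13465374 to 13494490, minus strand, 1 transcript), was near the detection limit in control and low in Sox10ko. It had 1, 0 and 2 reads in control replicates 1, 2 and 3 and 35, 90 and 83 reads in Sox10ko, or 1.05, 2.11 and 2.07 CPM there. The pooled ratio was 69.8 with a 95% counting interval of 23.6 to 341 (edgeR adjusted p = 0.000756). It was 136 without control replicate 3 and 46.5 without control replicate 2. It passed the filter on low counts through Sox10ko alone, which sets its direction. Tmem255b, a gene on the other strand that shares 34 exonic bases with Gas6, was called as well, with 0 control and 45 Sox10ko reads (edgeR adjusted p = 0.00398), also passing the filter through Sox10ko alone.

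Pros1, protein S, a ligand of Tyro3 and Mertk, had more transcript than Gas6 in both groups. It fell from 75.0 ± 9.53 to 43.5 ± 6.45 CPM (1.72-fold, log2 fold change -0.78 ± 0.14, edgeR adjusted p = 0.00617). Even after the rise of Gas6, Gas6 held only 6.01% ± 1.92 of the ligand pair per kb in Sox10ko, against 0.0515% ± 0.0467 in control (exact permutation p = 0.10, two-sided, the smallest possible; 0.167 adjusted over the 5 shares). For every 100 units of Axl per kb there were 0.119, 0.213 and 0.292 units of Gas6 in Sox10ko. Adam10, a protease that sheds TAM receptors from the surface, fell 1.65-fold (edgeR adjusted p = 0.00398). Of 9 other TAM genes listed, 8 were tested, 4 were lower and 0 higher. Among all tested genes, 32.0% were called, 14.7% lower and 17.3% higher. Macrophages also express Axl, Mertk and Gas6. Of 8 leukocyte and macrophage markers, 4 were tested and 3 were higher in Sox10ko, Cx3cr1 among them with its direction fixed by the filter, with a summed level of 6.35 to 8.30 CPM in control and 20.3 to 28.4 CPM in Sox10ko. Itgam had 0 reads, and Ptprc had 3 in control and 30 in Sox10ko. The part of such cells in these results was not tested.

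**Figure D4:**
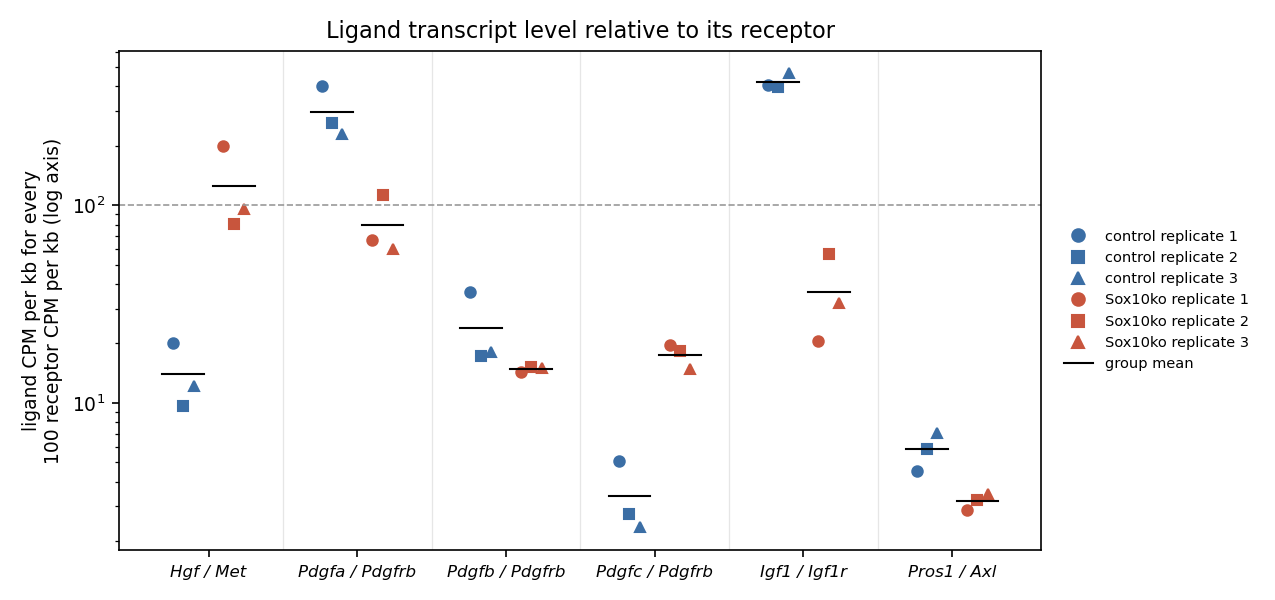
Ligand CPM per kb of exon for every 100 receptor CPM per kb in each library, on a log axis with the dashed line at parity. Hgf over Met and Pdgfc over Pdgfrb are higher in every Sox10ko library. Pdgfa and Pdgfb over Pdgfrb, Igf1 over Igf1r and Pros1 over Axl are lower in every Sox10ko library. The A chain binds PDGF receptor alpha, and protein S is a ligand of Tyro3 and Mertk. Pdgfa over Pdgfrb and Pros1 over Axl therefore compare transcript levels, not a ligand with its own receptor.

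Ordered by level per kb of exon, the controls ran from Axl (321 CPM per kb) over Met (138), Pdgfa (121), Pdgfrb (42.4), Hgf (18.5), Pdgfb (9.51) and Igf1r (7.998) to Pdgfra (0.0732), Gas6 (0.00994) and Igf2 (0). The ranges of Met and Pdgfa, of Pdgfb and Igf1r, and of Gas6 and Igf2 overlapped, so those neighbours were not separated. In Sox10ko the order was Axl (338 CPM per kb), Pdgfrb (84.3), Pdgfa (65.5), Hgf (35.2), Met (31.4), Pdgfb (12.5), Igf1r (8.78), Gas6 (0.684), Pdgfra (0.0846) and Igf2 (0.00900). There the ranges of Pdgfrb and Pdgfa and of Hgf and Met overlapped.

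Downstream of the receptors, 28 of 29 adaptor and PI3 kinase genes were tested, 7 were higher and 2 lower. The share called, 32.1%, was close to that of all tested genes (32.0%). Among those higher were the PI3 kinase regulatory subunit Pik3r3 (1.99-fold, edgeR adjusted p = 0.00820), the catalytic subunit Pik3cb (1.72-fold, edgeR adjusted p = 0.0154) and Irs1, the docking protein of the IGF1 and insulin receptors (2.00-fold, edgeR adjusted p = 0.0166). The calls of Pik3cb and Irs1 were lost without control replicate 3 (edgeR adjusted p = 0.0721 and 0.0770), that of Irs1 also without control replicate 2 (0.0650). Grb14, an adaptor that inhibits the insulin receptor, fell from 74.2 ± 7.73 to 13.4 ± 2.63 CPM (5.52-fold, edgeR adjusted p = 0.000159). Nck2 was called 1.497-fold lower (edgeR adjusted p = 0.0289), a call lost under 5 of 14 alternatives. Gab1, the docking protein most used by Met, was at 20.1 ± 4.90 and 19.3 ± 2.98 CPM and was not called (edgeR adjusted p = 0.843).

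Of 25 listed genes that dampen receptor signalling, 23 were tested, 4 were higher and 6 lower, or 43.5% called against 32.0% of all tested genes. Among those lower, Inpp5d passed the low-count filter through control alone, which fixed its direction. Socs1, a cytokine signalling inhibitor, fell 11.2-fold (edgeR adjusted p = 0.000287), the receptor phosphatase gene Ptprj 2.21-fold (edgeR adjusted p = 0.00156) and Errfi1, an inhibitor of ErbB receptors, 1.95-fold (edgeR adjusted p = 0.00572). The ubiquitin ligase gene Cblb rose 2.68-fold (edgeR adjusted p = 0.000662) and Lrig3 1.80-fold (edgeR adjusted p = 0.00601). Inppl1 was called 1.26-fold higher (edgeR adjusted p = 0.0270), a call lost under 7 of 14 alternatives. Over all 6 lists of related genes, 36 of 83 tested genes were called, 18 in each direction, or 43.4% against 32.0% of all tested genes, with a median log2 fold change of -0.02 against 0.02. Among them, the filter had fixed the direction of Mst1, Igf2bp1 and Inpp5d. The count of called related genes was 23 without control replicate 3.

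Flanking genes were the nearest tested ones on either side that did not overlap the member. Of these 20, 6 were called higher and 2 lower, or 40.0% called against 32.0% of all tested genes. Among those higher, Fam169b beside Igf1r and Cyp2s1 beside Axl were at 0.0732 ± 0.127 and 0.247 ± 0.109 CPM in control. Both were too low there to pass the low-count filter, so they entered the test through Sox10ko, which fixed their direction. Beside Met, Cav1 at a distance of 122 kb rose 2.598-fold (edgeR adjusted p = 0.00888), and Capza2 at 62.3 kb was not called (edgeR adjusted p = 0.599). Beside Pdgfa, Prkar1b fell 22.1-fold (edgeR adjusted p = 5.32e-05) and Fam20c was not called (edgeR adjusted p = 0.0825). Both flanking genes of Hgf were higher, Cacna2d1 1.63-fold (edgeR adjusted p = 0.00583) and Sema3c 4.37-fold (edgeR adjusted p = 0.000245). Neither flanking gene of Pdgfrb passed, nor did those of Gas6. Tmem255b, which overlaps Gas6 and was called higher, was not counted as a flanking gene. Beside Axl, Hnrnpul1 at 2.52 kb was not called (edgeR adjusted p = 0.642), and Cyp2s1, at under 1 CPM in both groups, was (edgeR adjusted p = 0.0156).

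The genes whose profile over the 6 libraries was nearest to that of each tested member were sought among 10231 genes averaging 5 CPM or more, by the root mean square distance of log2 CPM after each gene's mean was removed. For Met these were Igsf11 (distance 0.17) and Prag1 (0.18). For Pdgfa they were Cep170 (0.07) and Ttyh3 (0.08), and for Hgf Neurl1b (0.08) and Morn2 (0.10). Mocs1 (0.11) and P3h2 (0.12) were nearest to Pdgfrb, and Fas (0.28) and Heph (0.37) to Gas6. Among uncalled members, Axl was nearest to Phykpl (0.06) and Col5a1 (0.06), Igf1r to Rrp8 (0.03) and Champ1 (0.03), Pdgfb to Cyp4f16 (0.07) and 8430429K09Rik (0.08), and Pdgfra to Zfp169 (0.21) and Dnajc4 (0.28). The distances rest on 6 libraries in 2 groups and are a description.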

How the data were processed

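The authors deposited 1 table of raw read counts per Ensembl gene ID for each of 6 libraries. Per the labels' protocols, column-purified RNA went into stranded mRNA libraries. The processing notes of the submitters name the build mm10 (GRCm38) and the tools HTSeq, STAR 2.6.0c and DESeq2. Roles of these tools, annotation release and strand setting were not given in the sources used here. Counts are not corrected for gene length.

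Samples were grouped by title. Symbols matched 54042 of 54109 IDs, and coordinates and exon lengths came from GENCODE M21 on GRCm38. In edgeR 4.0.16 (R 4.3.3), low genes were removed by filterByExpr, and the others were TMM-scaled and tested with glmQLFit and glmQLFTest for genotype with no covariate, two-sided, with Benjamini-Hochberg adjustment over 15427 genes and a threshold of 0.05. The 95% intervals of log2 fold changes use the fit's degrees of freedom; the counting interval of the Gas6 ratio (Clopper-Pearson) and the floor of 3 counts cover counting error only. The test was first run on simulated counts. It recovered 2 of 50 genes set to differ 1.5-fold, 37 of 50 at 2-fold, 46 of 50 at 4-fold and 50 of 50 at 8-fold. Some genes set to differ 2-fold or 4-fold were missed, so a gene that did not pass may still differ by 2-fold or more. Exact permutation tests used scipy 1.17.1. Replicates differed by more than sampling noise.

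The members and gene lists were chosen with earlier results of these data known. Named genes are the members, up to 3 called genes per direction and list with the lowest adjusted p, family members needed for a share or an order, the 2 nearest profiles of each tested member, and flanking tested genes. Igfbp5, Pappa, H19, Gab1, Inpp5d, the HGF proteases and inhibitors, overlapping genes and marker genes were named after their values were seen. Hgs matched 2 IDs and was left out. Alternatives were other scalings and filters, DESeq2 1.42.0, limma-voom 3.58.1, a replicate block, chromosome medians removed and each library left out.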

Additional observations from a re-analysis of the deposited data

How the results depend on the processing

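The 5 called members kept their direction and their call under every alternative in which they were tested. The highest edgeR adjusted p among them was 0.0377, for Hgf without control replicate 3. Gas6 entered the main test through Sox10ko alone, which set its direction, so its kept direction adds no support. With 1 library left out at a time, the log2 fold change ran from -2.29 to -1.90 for Met, -1.11 to -0.78 for Pdgfa, 0.81 to 1.07 for Hgf, 0.81 to 1.08 for Pdgfrb and 5.38 to 6.71 for Gas6. For genes that were not called, it ran from -0.55 to 0.54 for Pdgfra, -0.052 to 0.183 for Axl and -0.39 to 0.10 for Insr, so their sign depended on the library left out; the cause was not tested. The count of called genes ran from 2869 to 4681 with a library left out, against 4939, and that of related genes from 23 to 37, against 36; fewer samples enter these fits. Members called ran from 5 to 6. With a replicate block, 3537 genes, 5 members and 28 related genes were called. Same-numbered libraries did not deviate together (correlations of -0.21, -0.10 and 0.07 over 10236 genes), so the number was not taken as a pairing. At this depth Igf2 in control and Pdgfd in both groups were not detected, and Igf2 in Sox10ko rested on 6 reads. The size of the Gas6 rise is uncertain by at least its counting interval, which leaves out differences between cultures.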
